A study of Rattus norvegicus with 12 samples.

Results

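Brain endothelial and blood-brain barrier genes were followed in the striatal RNA of 12 rats that had taken methamphetamine (MA). The set held 38 gene symbols, chosen by their known roles in brain vessels and not by a cutoff on measured values. The choice was made with earlier results of these data known. The set comprised receptors of vascular growth factors, junction and surface proteins, transcription factors, transporters with barrier enzymes, and nitric oxide, coagulation and other endothelial genes. Of the 38 symbols, 35 were among the 17337 genes of the deposited table, and 34 had a mean above 4 reads over the 12 rats. *Robo4*, a guidance receptor of endothelial cells, had 0 to 3 reads per rat and was not tested. *Slco1a4*, *Ptprb* and *Mmrn2* were not analysed here. The lowest count of any of the 34 genes in any rat was 5, for *Plvap*, so every rat gave a reading of each.

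The striatum was taken from 4 MA12, 4 MA24 and 4 non-addicted rats, all WT and all labelled as treated with methamphetamine. MA12 and MA24 rats were killed 12 h and 24 h after the last of 16 daily MA self-administration sessions, whereas the non-addicted rats were labelled only as such after 16 days, with no time of collection. Per the study's methods the animals were male Sprague–Dawley rats, and each infusion followed a single lever press. The study's paper does not describe the non-addicted rats or how they were judged so, and that they took MA rests on their labels alone. Going by the labels, no rat without MA was analysed here. Below, MA rats and MA groups mean MA12 and MA24 only, although the non-addicted rats are labelled as taking MA too. The rats carried the numbers 21, 31, 4N and 7N (MA12), 9N, 14N, 15N and 16N (MA24) and 9, 11, 12 and 13 (non-addicted), and the labels do not explain the letter N but give all 12 rats one batch. Every MA24 rat and no non-addicted rat had it, so that letter and group cannot be told apart in Non-addicted vs. MA24. Nothing states whether the rats of a group were littermates, and p-values measure the spread between these rats only.

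The endothelial cells of brain capillaries form the blood-brain barrier. Claudin and occludin strands seal the gaps between the cells, few vesicles cross them, and transporters in their membranes carry in fuels such as glucose and lactate and pump drugs back to the blood. Growth factor signals through VEGF and angiopoietin receptors, and SOX and ETS transcription factors, keep these cells in their vascular state, and pericytes wrapped around the capillaries help to hold the barrier. In RNA from whole tissue, fewer cells of a type and less RNA per cell cannot be told apart.

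Each of the 12 libraries held 17908962 to 23850284 counted reads. Levels are given as CPM (read counts per 1000000 of the library), scaled between libraries by the trimmed mean of M-values, and the values of the rats of a group always follow the order of numbers above. Striatal projection neuron markers, such as the dopamine receptor genes, were present at a summed level of 13765 to 18290 CPM, as the tissue label says. All 12 listed genes of that marker list were measured.

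In brief, the non-addicted rats had the lowest levels. The group mean of log2 CPM was lowest in the non-addicted rats for 32 of the 34 genes and in MA12 for the other 2, and it was highest in MA24 for 24 genes and in MA12 for 10. *Kdr* and *Egfl7* were lower in non-addicted rats than in each MA group, *Cldn5* and *Car4* were lower than in MA24, and *Abcg2* was higher in MA24 than in MA12. Differentially expressed genes (DEGs) were those whose fold change (FC) reached 1.5 with an adjusted p below 0.05. By this rule 1 of 33 genes of the set was called in MA24 vs. MA12, 2 of 32 in Non-addicted vs. MA12 and 4 of 33 in Non-addicted vs. MA24. Over all genes tested, 2.45%, 0.251% and 0.456% were called in these comparisons, either way. Without the filter that sets aside the 15% of genes with the lowest variance, all calls with the non-addicted rats were lost, with adjusted p-values between 0.0669 and 0.0887, and the log2FC of each called gene kept its size. Of all genes, edgeR then called 5 in Non-addicted vs. MA12 and 0 in Non-addicted vs. MA24, with 1521 and 2229 at an unadjusted p below 0.05. With no filter on counts or variance, *Kdr* was called against MA12 (adjusted p = 0.0360) and *Cldn5* and *Egfl7* against MA24 (adjusted p = 0.0383 for both). DESeq2 was run with the filter only.

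**Figure D1:**
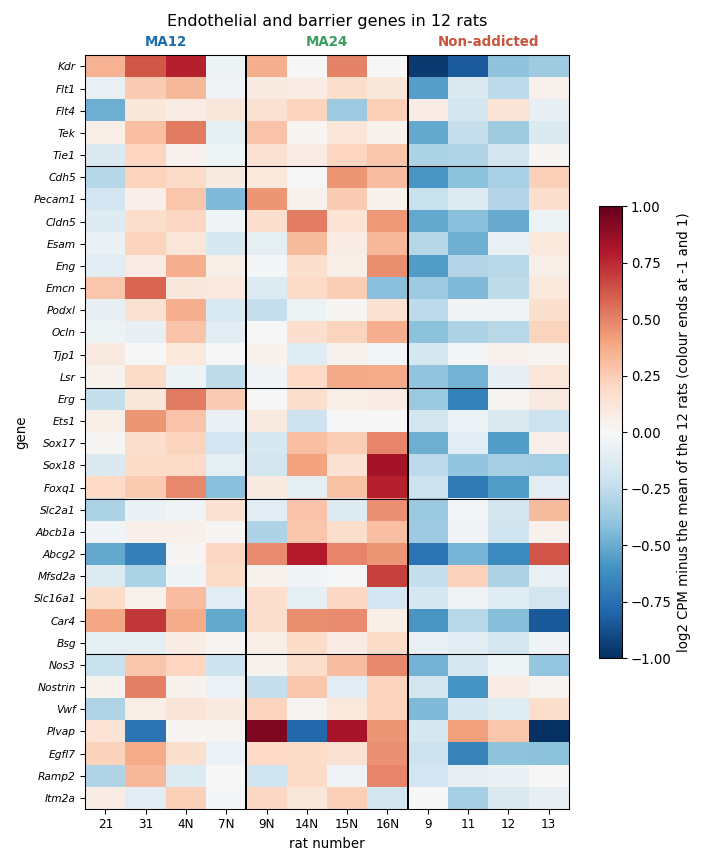
Level of each of the 34 measured genes (rows) in each of the 12 rats (columns), as log2 CPM minus the gene's mean over the 12 rats, with rats grouped as MA12, MA24 and non-addicted and genes ordered by role. Blue, below the mean, fills most of the non-addicted columns, and it is palest there in rat 13.

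The proximal promoters of the 5 called genes are shown because they are the members that the comparisons turn on, and because several factors of the set (*Ets1*, *Erg*, *Sox17* and *Sox18*) bind short DNA words. The windows come from RefSeq on GRCr8, which is not the rn6 build used for counting, and run from 250 bases before to 50 bases after the start of the gene. Each is written 5′ to 3′ on the strand of the gene, with the words GGAAG or CTTCC (the ETS core on either strand) in capitals. *Kdr* lies at chr14:32571813-32572112 (+), *Egfl7* has 2 windows at chr3:29805381-29805680 (+) and chr3:29808051-29808350 (+), *Cldn5* lies at chr11:95718549-95718848 (-), *Car4* at chr10:70325108-70325407 (+) and *Abcg2* at chr4:89075224-89075523 (+).
Kdr: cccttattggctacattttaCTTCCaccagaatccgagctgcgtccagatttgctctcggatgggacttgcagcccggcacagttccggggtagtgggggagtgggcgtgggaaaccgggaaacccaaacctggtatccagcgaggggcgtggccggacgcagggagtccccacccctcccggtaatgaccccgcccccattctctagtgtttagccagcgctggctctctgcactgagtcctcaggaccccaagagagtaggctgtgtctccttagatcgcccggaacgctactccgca
Egfl7, window 1: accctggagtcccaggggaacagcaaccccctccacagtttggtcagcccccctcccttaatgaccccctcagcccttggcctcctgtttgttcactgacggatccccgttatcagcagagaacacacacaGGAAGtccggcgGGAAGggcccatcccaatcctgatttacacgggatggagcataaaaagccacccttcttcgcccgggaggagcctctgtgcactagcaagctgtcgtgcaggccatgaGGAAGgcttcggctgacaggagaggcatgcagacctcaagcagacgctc
Egfl7, window 2: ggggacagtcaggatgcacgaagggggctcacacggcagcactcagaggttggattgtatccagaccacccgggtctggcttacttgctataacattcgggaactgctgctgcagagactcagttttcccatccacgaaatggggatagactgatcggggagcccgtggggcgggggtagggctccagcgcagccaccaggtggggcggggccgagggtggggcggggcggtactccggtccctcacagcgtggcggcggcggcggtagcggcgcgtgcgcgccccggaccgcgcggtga
Cldn5: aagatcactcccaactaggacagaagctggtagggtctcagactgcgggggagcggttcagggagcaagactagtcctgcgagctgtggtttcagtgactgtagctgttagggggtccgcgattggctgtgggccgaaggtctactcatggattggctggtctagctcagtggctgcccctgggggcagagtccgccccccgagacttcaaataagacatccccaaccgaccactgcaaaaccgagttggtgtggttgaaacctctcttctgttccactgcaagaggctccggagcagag
Car4: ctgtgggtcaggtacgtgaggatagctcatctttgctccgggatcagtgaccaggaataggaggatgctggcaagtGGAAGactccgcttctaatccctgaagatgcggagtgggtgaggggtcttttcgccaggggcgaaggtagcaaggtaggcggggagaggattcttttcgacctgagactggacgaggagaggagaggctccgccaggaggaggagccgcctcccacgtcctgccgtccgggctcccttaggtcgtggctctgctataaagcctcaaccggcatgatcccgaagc
Abcg2: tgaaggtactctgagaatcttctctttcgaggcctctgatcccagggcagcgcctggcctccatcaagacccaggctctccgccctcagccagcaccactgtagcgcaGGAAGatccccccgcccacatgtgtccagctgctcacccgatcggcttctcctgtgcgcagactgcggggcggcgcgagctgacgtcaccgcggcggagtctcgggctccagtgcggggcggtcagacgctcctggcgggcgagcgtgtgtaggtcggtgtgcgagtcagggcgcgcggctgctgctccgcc
The ETS core matched 1 time in *Kdr*, *Car4* and *Abcg2*, 3 times in the first *Egfl7* window, and 0 times in the second and in *Cldn5*. It is a common word, present in 70.1% of 33469 windows of all genes, and in 23 of 27 windows of the 26 members that had one. The GC box GGGCGG, on either strand, was in 18 of the 27 member windows and in 33.1% of all. The SOX word ACAAAG was in 5 of 27 member windows and in 18.8% of all, the TATA box word TATAAA in 5 of 27 and 14.2%, and the E-box CACGTG in 3 of 27 and 6.42%. *Car4* held the TATA box word, *Cldn5* and *Kdr* held 1 GC box each, and *Abcg2* and the second *Egfl7* window held 4 each. A match describes the letters of the window and says nothing of binding.

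Among the receptors, *Kdr* had the largest difference of the whole set in both comparisons with the non-addicted rats. *Kdr* encodes VEGFR2, the main signalling receptor for VEGF on endothelial cells. It was counted at 20.4, 24.7, 27.4 and 15.4 CPM in the MA12 rats, 20.6, 15.9, 22.6 and 15.9 CPM in the MA24 rats and 8.18, 8.93, 12.1 and 12.5 CPM in the non-addicted rats. Each MA rat was above each non-addicted rat, the nearest being 15.4 against 12.5 CPM. Its mean level in non-addicted rats was 47.2% of that in MA12 (log2FC = -1.08, SE 0.18, adjusted p = 0.0128) and 55.4% of that in MA24 (log2FC = -0.85, SE 0.17, adjusted p = 0.0354). Between MA24 and MA12 its log2FC was -0.23 (SE 0.16, adjusted p = 0.403), and rats of both groups overlapped. The comparisons with MA12 and with MA24 share the 4 non-addicted rats, here and below, and so are not independent of each other.

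The other receptors had smaller differences, and edgeR and DESeq2 called 0 of these 4, although 3 of them in Non-addicted vs. MA24 had an unadjusted p below 0.05. *Tek* encodes TIE2, the receptor of the angiopoietins that steadies mature vessels. Its level was 28.3, 33.3, 38.9 and 25.3 CPM in the MA12 rats, 33.0, 27.3, 29.4 and 27.7 CPM in the MA24 rats and 18.9, 23.0, 21.1 and 24.4 CPM in the non-addicted rats. All non-addicted rats lay below all MA rats, with the highest of the former at 24.4 CPM and the lowest of the latter at 25.3 CPM. The log2FC was -0.53 against MA12 (SE 0.13, adjusted p = 0.0930) and -0.43 against MA24 (SE 0.12, adjusted p = 0.0969). *Flt1* encodes VEGFR1, which binds VEGF and limits how much reaches VEGFR2. Its reads came to 122, 154, 162 and 126 CPM in the MA12 rats, 137, 136, 146 and 140.0 CPM in the MA24 rats and 87.9, 117, 108 and 133 CPM in the non-addicted rats. Rat 13 reached the range of the MA12 rats but not that of the MA24 rats (log2FC = -0.35 against MA12 and -0.33 against MA24, adjusted p = 0.258 and 0.148). *Tie1*, the partner receptor of TIE2, separated the non-addicted rats from MA24 only narrowly. It stood at 36.5, 46.8, 41.5 and 39.1 CPM in the MA12 rats, 44.9, 42.7, 46.7 and 48.7 CPM in the MA24 rats and 32.3, 32.6, 35.4 and 40.5 CPM in the non-addicted rats. Its log2FC against MA24 was -0.38 (SE 0.11, adjusted p = 0.100). *Flt4*, the VEGFR3 gene known from lymphatic and sprouting endothelium, ranged over 1.98 to 3.33 CPM in the 12 rats with overlap between all groups (log2FC = -0.10 against MA24, SE 0.26).

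**Figure D2:**
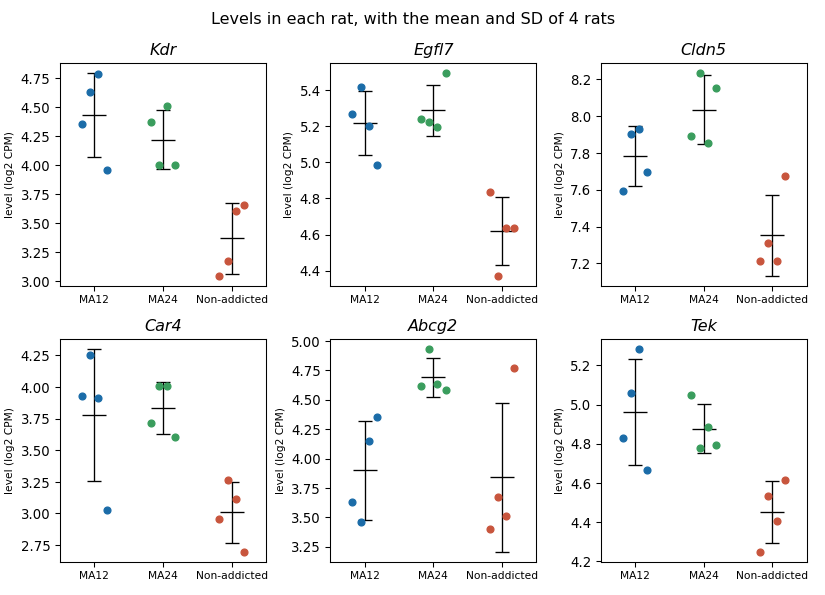
Levels in log2 CPM of the 5 called genes and *Tek* in each of the 12 rats, 1 point per rat, with the mean and SD of the 4 rats of each group. For *Kdr*, *Egfl7* and *Tek* all 4 non-addicted rats lie below all 8 MA rats, and for *Abcg2* all 4 MA24 rats lie above the MA12 rats while non-addicted rat 13 lies with MA24.

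Of the junction, adhesion and surface genes, *Cldn5* was the one called. Claudin-5 is the main claudin of the tight junctions between brain endothelial cells. The gene was read at 193, 239, 244 and 208 CPM in the MA12 rats, 238, 301, 232 and 285 CPM in the MA24 rats and 148, 158, 149 and 204 CPM in the non-addicted rats. MA24 and non-addicted rats did not overlap, whereas rat 13 lay above the lowest MA12 rat. In non-addicted rats *Cldn5* was at 62.3% of its MA24 level (log2FC = -0.68, SE 0.12, adjusted p = 0.0241), and its log2FC against MA12 was -0.43 (SE 0.12, adjusted p = 0.131). MA24 vs. MA12 gave 0.26 (SE 0.11, adjusted p = 0.167).

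Other junction genes had the same sign but overlapped between groups. *Ocln* encodes occludin, a second strand protein of tight junctions. It was found at 17.2, 16.8, 21.7 and 16.4 CPM in the MA12 rats, 17.7, 20.0, 20.8 and 22.9 CPM in the MA24 rats and 13.3, 14.4, 14.7 and 20.8 CPM in the non-addicted rats. Rat 13 was again inside the MA range (log2FC = -0.37 against MA24, SE 0.15, adjusted p = 0.214). VE-cadherin, the adherens junction protein of endothelium, is encoded by *Cdh5*. For this gene the values were 10.3, 14.7, 14.4 and 13.3 CPM in the MA12 rats, 13.5, 12.6, 17.1 and 15.5 CPM in the MA24 rats and 8.34, 9.42, 10.01 and 14.8 CPM in the non-addicted rats. Non-addicted rats 9, 11 and 12 were below all 8 MA rats and rat 13 was among the highest, and the log2FC was -0.31 against MA12 and -0.47 against MA24 (adjusted p = 0.518 and 0.194). *Pecam1*, the CD31 adhesion molecule, gave log2FC values of -0.06 and -0.32 in the same order. Its readings were 22.8, 27.0, 31.6 and 19.1 CPM in the MA12 rats, 35.4, 26.8, 31.0 and 26.6 CPM in the MA24 rats and 22.3, 23.8, 21.2 and 29.3 CPM in the non-addicted rats. No group stood apart from another for *Pecam1*. *Tjp1* encodes the scaffold ZO-1, which neurons and glia also make. This gene ran at 135, 127, 136 and 127 CPM in the MA12 rats, 129.8, 117, 129.96 and 125 CPM in the MA24 rats and 112, 126, 131 and 129 CPM in the non-addicted rats. Its SD over the 12 rats was 0.08 on the log2 scale, the smallest of the 34 genes, and the variance filter set it aside in all 3 comparisons.

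The remaining 5 surface genes were *Esam*, *Eng*, *Emcn*, *Podxl* and *Lsr*, which ranged over 18.9 to 33.5 CPM, 35.7 to 72.8 CPM, 6.51 to 13.3 CPM, 46.3 to 71.3 CPM and 11.5 to 20.8 CPM in the 12 rats. *Eng*, the endoglin co-receptor for TGF-beta family ligands, had a log2FC of -0.36 against MA12 and -0.43 against MA24, with adjusted p = 0.232 and 0.123. *Lsr*, a protein of the corners where 3 cells meet, was at -0.43 against MA24 (adjusted p = 0.166), and *Esam*, an endothelial adhesion molecule, at -0.34 (adjusted p = 0.225). *Emcn*, the sialomucin endomucin of veins and capillaries, differed most from MA12 (log2FC = -0.51, adjusted p = 0.225) and less from MA24 (-0.22). The sialomucin gene *Podxl* was nearly level with MA24 (log2FC = -0.02, SE 0.11), and that sign turned when libraries were scaled by total counts (0.05). All 9 tested genes of this group had negative log2FC in both comparisons with non-addicted rats, with medians of -0.21 and -0.37.

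Among the 5 transcription factors 0 were called by edgeR, with 4 at an unadjusted p below 0.05 in Non-addicted vs. MA12 and 3 in Non-addicted vs. MA24, where DESeq2 called *Sox18*. SOX17 and SOX18 are SOX-F factors of endothelial cells, and *Sox18* was the nearest to a call. Its counts amounted to 18.1, 22.8, 22.9 and 18.9 CPM in the MA12 rats, 17.6, 26.5, 22.2 and 35.7 CPM in the MA24 rats and 16.7, 15.2, 15.9 and 15.8 CPM in the non-addicted rats. Non-addicted rats were close together and under all MA rats, while MA24 rat 16N was far above the rest. The log2FC was -0.38 against MA12 (SE 0.12, adjusted p = 0.180) and -0.68 against MA24 (SE 0.17, adjusted p = 0.0675). Barrier endothelium also expresses the forkhead factor *Foxq1*. Levels of this gene were 9.50, 9.94, 11.6 and 6.15 CPM in the MA12 rats, 8.82, 7.73, 10.1 and 14.2 CPM in the MA24 rats and 7.09, 5.03, 5.58 and 7.65 CPM in the non-addicted rats. Its groups did not overlap between MA24 and non-addicted rats, though by a small step (log2FC = -0.69, SE 0.21, adjusted p = 0.123), and MA12 rat 7N lay among the non-addicted rats. *Sox17* (12.6 to 26.03 CPM) had a log2FC of -0.50 against MA24 (SE 0.16, adjusted p = 0.138). The ETS factors *Erg* (3.60 to 8.37 CPM) and *Ets1* (18.6 to 29.5 CPM) gave -0.29 and -0.13 against MA24, and *Ets1* gave -0.35 against MA12 (SE 0.12, adjusted p = 0.239). All 5 factors had negative values in both comparisons.

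The transporters and barrier enzymes held the one DEG between the abstinence times. *Abcg2* encodes BCRP, a pump that returns drugs from endothelium to blood. It was measured at 12.3, 10.9, 17.7 and 20.3 CPM in the MA12 rats, 24.4, 30.5, 24.7 and 23.9 CPM in the MA24 rats and 10.5, 12.7, 11.3 and 27.2 CPM in the non-addicted rats. All MA24 rats exceeded all MA12 rats, and the MA24 mean was 1.70-fold the MA12 mean (log2FC = 0.76, SE 0.17, adjusted p = 0.0160). This 1 call among 33 members was near the share over all genes tested, of which 2.45% were called either way. Called higher were 0.735% of all genes. At an unadjusted p below 0.05 there were 6.06% of the members, against 23.6% of all genes. Non-addicted rats 9, 11 and 12 were with the lower MA12 rats and rat 13 was with MA24, so that the log2FC against MA24 was -0.75 (SE 0.22, adjusted p = 0.119), and -1.18 without rat 13. Limiting MA24 vs. MA12 to rats numbered with N, 4 against 2, reduced the log2FC of *Abcg2* from 0.76 to 0.46 (adjusted p = 0.184).

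*Car4* encodes a membrane-bound carbonic anhydrase of capillary endothelium. Its expression came to 15.1, 18.9, 14.9 and 8.07 CPM in the MA12 rats, 13.1, 16.0, 16.0 and 12.0 CPM in the MA24 rats and 7.66, 9.52, 8.57 and 6.40 CPM in the non-addicted rats. MA24 rats did not overlap with non-addicted rats, and MA12 rat 7N, unlike the other 3 of its group, was inside the non-addicted range. *Car4* was at 56.2% of its MA24 level in the non-addicted rats (log2FC = -0.83, SE 0.16, adjusted p = 0.0354). Against MA12 the log2FC had nearly the same size (-0.84) but a larger error (SE 0.21, adjusted p = 0.0878), and without MA12 rat 7N it was -1.004 with an adjusted p of 0.00738. Between MA24 and MA12 the log2FC was -0.0016 (SE 0.19, adjusted p = 0.997), and its sign there depended on the scaling.

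The nutrient carriers and the other efflux pump differed less. *Slc2a1* encodes GLUT1, the glucose carrier of the barrier. It yielded 227, 270.3, 276 and 314 CPM in the MA12 rats, 264, 345, 259.6 and 388 CPM in the MA24 rats and 219, 281, 249 and 353 CPM in the non-addicted rats. The non-addicted rats spanned a wider range than the MA12 rats, with log2FC = 0.02 against MA12 and -0.19 against MA24 (SE 0.13 and 0.14), and the first of these signs turned when rat 13 was left out (-0.11). *Mfsd2a* carries lysolipids with omega-3 fatty acids and restrains vesicle traffic. The level was 35.8, 31.6, 38.6 and 44.7 CPM in the MA12 rats, 40.3, 38.6, 39.3 and 63.4 CPM in the MA24 rats and 33.6, 46.4, 31.8 and 37.4 CPM in the non-addicted rats. MA24 rat 16N stood alone above the other 11 rats, and the log2FC against MA24 was -0.29 (SE 0.15, adjusted p = 0.328). P-glycoprotein, the broad drug pump of the luminal membrane, is encoded by *Abcb1a*. It was present at 54.5, 57.6, 57.7 and 56.1 CPM in the MA12 rats, 44.8, 67.3, 62.7 and 68.6 CPM in the MA24 rats and 43.2, 54.6, 48.5 and 57.3 CPM in the non-addicted rats. All groups overlapped, with a log2FC of -0.16 against MA12 and -0.26 against MA24 (adjusted p = 0.562 and 0.301), and reads could be shared with its close copy *Abcb1b*, so its counts are uncertain. *Slc16a1*, the MCT1 lactate carrier, read at 52.6 to 74.5 CPM, had a log2FC of -0.25 against MA12 and -0.16 against MA24. *Bsg* encodes basigin, the partner protein of MCT1, and is made by many cell types. Reads amounted to 687, 687, 775 and 742 CPM in the MA12 rats, 769.6, 835, 774 and 838 CPM in the MA24 rats and 700.4, 682, 653 and 724 CPM in the non-addicted rats. Its differences were small, with all MA24 rats above all non-addicted rats (log2FC = -0.23, SE 0.09, adjusted p = 0.210). In Non-addicted vs. MA12 the variance filter set *Bsg* aside. The table's *Slco1a2*, whose symbol RefSeq pairs with *Slco1a4* and which is not counted in the set, had log2FC = -0.44 against MA12 and -0.33 against MA24 (adjusted p = 0.126 and 0.197).

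In the last group, *Egfl7* was called in both comparisons with the non-addicted rats. *Egfl7* encodes a matrix protein secreted by endothelial cells, and its gene is the host of miR-126, which was not measured here. Its values ran to 38.5, 42.6, 36.8 and 31.6 CPM in the MA12 rats, 37.7, 37.2, 36.5 and 45.1 CPM in the MA24 rats and 28.5, 20.6, 24.8 and 24.8 CPM in the non-addicted rats. The 8 MA rats were all above the 4 non-addicted rats, with 31.6 CPM as the lowest MA value and 28.5 CPM as the highest non-addicted value. The non-addicted mean was 65.8% of MA12 (log2FC = -0.60, SE 0.12, adjusted p = 0.0440) and 62.8% of MA24 (log2FC = -0.67, SE 0.12, adjusted p = 0.0280). MA24 and MA12 differed by 0.07 (SE 0.11, adjusted p = 0.756).

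*Nos3* encodes the endothelial nitric oxide synthase. It registered at 19.1, 27.0, 25.9 and 19.3 CPM in the MA12 rats, 22.8, 25.1, 27.6 and 31.2 CPM in the MA24 rats and 16.1, 19.8, 21.7 and 17.1 CPM in the non-addicted rats. No non-addicted rat reached an MA24 rat (log2FC = -0.52, SE 0.13, adjusted p = 0.0784), while MA12 rats 21 and 7N lay inside the non-addicted range. *Vwf* encodes the von Willebrand clotting factor. Counted reads gave 67.5, 87.1, 90.8 and 88.1 CPM in the MA12 rats, 97.1, 84.5, 89.3 and 96.7 CPM in the MA24 rats and 61.1, 73.4, 76.2 and 94.0 CPM in the non-addicted rats. The groups overlapped, and the log2FC was -0.14 against MA12 and -0.28 against MA24 (adjusted p = 0.721 and 0.237). *Plvap*, the diaphragm protein of leaky vessels that a mature barrier lacks, had the fewest reads of all, 5 to 39 per rat. This corresponded to 0.925, 0.460, 0.846 and 0.847 CPM in the MA12 rats, 1.68, 0.443, 1.54 and 1.16 CPM in the MA24 rats and 0.730, 1.13, 1.03 and 0.260 CPM in the non-addicted rats. Rats of one group differed as much as rats of different groups, and at this depth no difference was detectable (log2FC = -0.61 against MA24, SE 0.52). *Nostrin*, a nitric oxide synthase traffic protein, *Ramp2*, a co-receptor for adrenomedullin, and *Itm2a*, an endothelial membrane protein, ranged over 3.60 to 7.81 CPM, 10.5 to 18.2 CPM and 56.7 to 84.2 CPM and had log2FC between -0.24 and -0.20 against MA24, not called by edgeR or DESeq2.

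**Figure D3:**
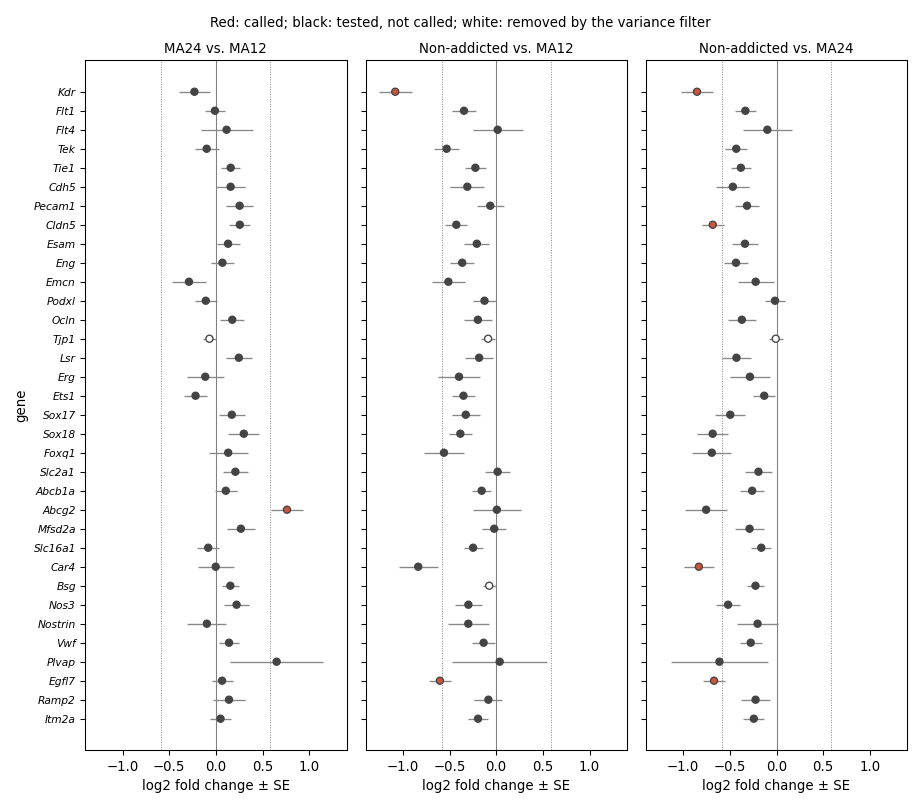
Log2 fold change (point) and its standard error (bar) of each of the 34 genes in MA24 vs. MA12, Non-addicted vs. MA12 and Non-addicted vs. MA24, with dotted lines at an FC of 1.5. Every point lies below 0 in Non-addicted vs. MA24 (*Podxl* turned to 0.05 when scaled by total counts), whereas in MA24 vs. MA12 most lie within a small distance of 0 and *Abcg2*, called, and *Plvap*, not called, are past the line.

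Counted over the set, 33 of 33 tested genes had a log2FC below 0 in Non-addicted vs. MA24, against 49.7% of the 10744 genes tested, and the median was -0.34 against 0.00 for all. Over the alternatives, 32 to 34 were below 0, and with total counts *Podxl* was above. At an unadjusted p below 0.05 there were 21 of the 33, against 17.5% of all genes. Against MA12, 28 of 32 were below 0 (52.3% of all genes), the median was -0.27 (all genes -0.01), and 14 had an unadjusted p below 0.05 (12.3% of all genes). In MA24 vs. MA12, 10 of 33 were below 0 (51.7% of all), the median was 0.13 (all genes -0.02), and 2 had an unadjusted p below 0.05, *Abcg2* and *Cldn5* (23.6% of all genes). Members of a set that sit in the same cells move together from rat to rat, so these counts are descriptions and were given no test. The members were also chosen with earlier results of these data known, so their shares are not an independent contrast with all genes, here and below.

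Separation of the groups, rat by rat, showed the same order. In Non-addicted vs. MA24, 11 of the tested genes had all 4 non-addicted rats below all 4 MA24 rats, among them *Nos3* and 4 of the 5 receptors, where 4.9% of all genes did. Against MA12 they were 4, *Kdr*, *Tek*, *Sox18* and *Egfl7*, where 3.61% of all genes did. In MA24 vs. MA12 *Abcg2* alone had the groups apart, upwards, where 7.18% of all genes did, and 0 members had them apart downwards, where 8.35% of all did. Called lower were 2 members against MA12, where 0.149% of all genes were, and 4 against MA24, where 0.13% were. For a single gene, groups apart are the most extreme of the 70 splits of 4 against 4, with a two-sided exact permutation p of 0.0286, the smallest this design can give.

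The rats of a group were not alike. Over the 34 genes, non-addicted rat 9 was the lowest of all 12 rats for 15 genes and rat 11 for 9, while rat 13 was the highest of the non-addicted rats for 22. MA24 rat 16N was the highest of the 12 for 15 genes. Within MA12, rat 4N was the highest for 18 genes and rat 7N the lowest for 16. The mean of the 34 genes, as log2 CPM centred per gene, was -0.35, -0.26, -0.21 and -0.06 in the non-addicted rats, -0.05, 0.14, 0.20 and -0.05 in MA12 and 0.08, 0.13, 0.18 and 0.26 in MA24. All non-addicted values were thus below all MA values, for rat 13 by a small margin. The calls also changed when single rats were left out. Against MA24, the number of called members went to 0 without non-addicted rat 11 or 12 or MA24 rat 15N or 16N. It went to 8 without non-addicted rat 13, when *Abcg2*, *Cdh5*, *Sox17* and *Sox18* joined the 4. Without MA24 rat 9N it stayed at 4, but *Kdr* was lost (adjusted p = 0.0546) and *Sox18* joined. Over all genes, edgeR called 49 with all rats, 3, 0, 1 and 6 without rats 11, 12, 15N and 16N, and 187 without rat 13. With 1 rat left out, the log2FC against MA24 ranged from -0.95 to -0.75 for *Kdr* and from -0.81 to -0.62 for *Cldn5*. It ranged from -0.75 to -0.59 for *Egfl7* and from -0.92 to -0.74 for *Car4*. Against MA12, *Kdr* was called whichever rat was left out, *Egfl7* was lost without non-addicted rat 11 or 12 or MA12 rat 21, 31 or 4N, and *Car4* and *Tek* joined both without MA12 rat 7N. Over all genes, edgeR called 27 in that comparison, and 8 to 93 with 1 rat left out.

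Signalling partners of these receptors were a list of 42 ligands, co-receptors and effectors of the VEGF, angiopoietin, Notch, WNT and TGF-beta pathways. In MA24 vs. MA12, 36 were tested, and *Nrp2*, a co-receptor for VEGF and semaphorins (log2FC = -1.49, SE 0.42, adjusted p = 0.0436), was lower and *Reck*, a partner of the WNT7 receptor complex (0.65, SE 0.15, adjusted p = 0.0212), higher. In Non-addicted vs. MA12, 25 of 35 were below 0 with a median of -0.19, and *Tgfbr2*, a TGF-beta receptor (-0.94, SE 0.16, adjusted p = 0.0128), and *Cxcl12*, a chemokine of endothelial and mural cells (-0.72, SE 0.15, adjusted p = 0.0440), were lower. In Non-addicted vs. MA24, 24 of 34 were below 0 with a median of -0.10, and edgeR called 0, with 7 at an unadjusted p below 0.05, while DESeq2 called *Dll4* and *Nrp2*. Of all genes tested, edgeR called 2.45% in MA24 vs. MA12, 0.251% in Non-addicted vs. MA12 and 0.456% in Non-addicted vs. MA24. Below 0 were 52.3% of all genes in Non-addicted vs. MA12 and 49.7% in Non-addicted vs. MA24. In the latter, 17.5% of all genes had an unadjusted p below 0.05.

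Other genes known from endothelium and the barrier, a list of 51 symbols beyond the set, mostly had negative values for the non-addicted rats. In Non-addicted vs. MA24, 34 of 44 tested had a log2FC below 0 (49.7% of all genes) with a median of -0.15. In Non-addicted vs. MA12, 31 of 44 did (52.3% of all genes) with a median of -0.14. *Slc22a8*, the organic anion carrier OAT3, was the one called (log2FC = -0.63 in Non-addicted vs. MA24, SE 0.14, adjusted p = 0.0443). In MA24 vs. MA12, 25 of 45 were below 0 (51.7% of all genes) and the median was -0.02. EdgeR called 0 of them there, with 4 at an unadjusted p below 0.05 (23.6% of all genes), and DESeq2 called *Klf4*. In Non-addicted vs. MA12 edgeR called 0, with 12 at an unadjusted p below 0.05 (12.3% of all genes), and DESeq2 called *Cd34* and *Clec14a*.

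Genes of other cells moved with the set. All 15 markers of mural cells, the pericytes and smooth muscle cells of the vessel wall, had a log2FC below 0 in both comparisons with non-addicted rats, with medians of -0.65 against MA12 and -0.43 against MA24. Against MA12 4 of them were called lower, where 0.149% of all genes were. These were the potassium channel subunit gene *Abcc9* (-1.10), *Mcam*, also made by endothelium (-0.92), and the contractile genes *Tagln* (-0.83) and *Acta2* (-0.81). Against MA24 *Mcam* was called lower (-0.69), where 0.13% of all genes were. In both comparisons 11 of the 15 had an unadjusted p below 0.05, against 12.3% and 17.5% of all genes. The mural markers summed to 310 to 494 CPM in MA12, 314 to 370 CPM in MA24 and 232 to 278 CPM in non-addicted rats. Mural markers differed between MA24 and MA12 too, where *Abcc9* (-0.73) and *Rgs5* (-0.72) were called lower, although the endothelial set had a positive median there. Of all genes, 2.45% were called either way in MA24 vs. MA12. The 7 measured fibroblast markers were all below 0 in both comparisons with the non-addicted rats, and 0 were called by edgeR or DESeq2. At an unadjusted p below 0.05 there were 3 in each, against 12.3% and 17.5% of all genes. *Col1a2* was at 0 in every rat.

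**Figure D4:**
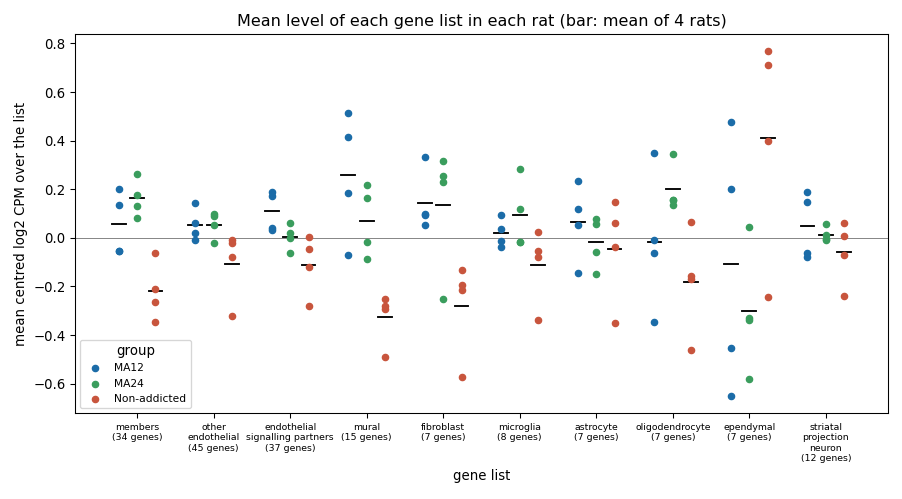
Mean of log2 CPM, centred per gene, over each gene list in each rat, 1 point per rat and a bar at the mean of the 4 rats of a group. The 4 non-addicted rats lie lowest for the 34 set genes and for the mural markers, and their ependymal scores run from -0.24 to 0.77.

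Markers of tissue next to the striatum were higher in some non-addicted rats. Ependymal cells line the ventricle, and their 7 markers were all above 0 in Non-addicted vs. MA12. In Non-addicted vs. MA24 6 of the 7 were above 0. *Foxj1* (1.08) and *Enkur* (0.92) were called higher there, where 0.456% of all genes were called either way. The ependymal markers summed to 58.7 to 120.9 CPM in MA12, 63.8 to 88.6 in MA24 and 76.6 to 154.8 in the non-addicted rats, lowest of that group in rat 13. Choroid plexus markers summed to 2.87 to 9.36, 3.75 to 4.78 and 6.04 to 24.7 CPM in the same order. The 3 measured blood markers summed to 118.6 to 198.5, 110.4 to 175.6 and 104.0 to 192.4 CPM, and the groups overlapped. In Non-addicted vs. MA12 4 of the 6 choroid plexus markers tested were above 0, with 2 at an unadjusted p below 0.05 (12.3% of all genes). In Non-addicted vs. MA24 all 6 were above 0, with a median of 1.24 and 3 at an unadjusted p below 0.05 (17.5% of all genes). EdgeR called 0 of these 6, and DESeq2 called *Clic6* and *Folr1*. In the same comparison DESeq2 called the ependymal *Tmem212* besides *Foxj1* and *Enkur*. Of 12 clock genes tested 4 were called in MA24 vs. MA12 (2.45% of all genes), *Ciart* (0.98), *Per2* (0.96) and *Dbp* (0.66) higher and *Arntl* (-0.61) lower. In Non-addicted vs. MA12 4 were called too (0.251% of all genes), *Per2* (1.04), *Ciart* (0.997) and *Per3* (0.64) higher and *Arntl* (-0.60) lower. In Non-addicted vs. MA24 0 of 10 were called by edgeR or DESeq2 (1 at an unadjusted p below 0.05, against 17.5% of all genes). Of the brain cell lists, edgeR called *Pdyn* (-0.65) among the neuron markers in Non-addicted vs. MA12 and *Slc1a2* (-0.70) among the astrocyte markers in MA24 vs. MA12, where DESeq2 called 0. EdgeR called 0 of the microglia and 0 of the oligodendrocyte markers in any comparison, where DESeq2 called the microglial *Cx3cr1* in Non-addicted vs. MA12. At an unadjusted p below 0.05 the microglia list had 2, 1 and 2 genes in the 3 comparisons (28.6%, 12.5% and 25%). The oligodendrocyte list had 2, 1 and 7 (28.6%, 14.3% and 100%). Of all genes, 23.6%, 12.3% and 17.5% had such a p-value. In the non-addicted rats the microglia markers were below 0 for 7 of 8 genes against MA12 and 8 of 8 against MA24, with medians of -0.12 and -0.16. The 7 oligodendrocyte markers were all below 0 in both comparisons with the non-addicted rats, with medians of -0.17 and -0.35, and their summed level was 12417 to 22098 CPM in MA12, 18478 to 21614 CPM in MA24 and 11903 to 17599 CPM in the non-addicted rats. What part the tissue taken, the vessel wall cells, the glia or the hour had in the differences of the endothelial genes was not tested.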

How the data were processed

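RNA from the striatum of the 12 rats was extracted with TRIzol, made into poly-A libraries with the TruSeq RNA kit v2 and sequenced in paired ends. Adapters were removed by the authors with Cutadapt 1.18, alignment to rn6 used STAR 2.7.0e, and the deposited values are raw read counts per gene, not normalized. The submitters' processing notes name featureCounts and also HTSeq 0.12.4. The strand setting and the treatment of multiply aligned reads are not given in the sources used here, so counts of genes with close copies or overlapping neighbours are uncertain. Groups came from the sample titles, and all 12 columns were used.

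Each pair of groups was fitted alone with edgeR 4.0.16 (glmQLFit and glmQLFTest, TMM factors) in R 4.3.3, over 10754, 10758 and 10744 genes with a mean count above 4 after the 15% least variable genes, by log2 CPM, were set aside. Both filters are a reading of those of the study. P-values were adjusted by Benjamini-Hochberg over all genes tested. Levels in log2 CPM used a prior count of 2. Alternatives were DESeq2 1.42.0, other size factors, other filters, a fit of all 3 groups, leaving out each rat, and rats numbered with or without N. The count of genes below 0 was chosen after seeing the data. The fits were tested on simulated data with 200 genes changed 2-fold. They recovered 145, 158 and 151 of these in the 3 comparisons, with 4, 8 and 5 false calls. Smaller changes were not simulated. The members and the marker lists were chosen with earlier results of these data known. Values in each rat are given for genes called, for genes with an unadjusted p below 0.05 and groups that did not overlap, and for a set of well known barrier genes. Marker lists covered striatal projection neurons, mural cells, fibroblasts, blood, choroid plexus, ependymal cells, microglia, astrocytes, oligodendrocytes and clock genes.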

Additional observations from a re-analysis of the deposited data

Results flagged for a closer look

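In a group of 4 rats, a rat was singled out where its gap to the nearest rat, divided by the range of the group, exceeded Dixon's critical value at the 95% level on the log2 CPM scale. Of 102 groups of 4 examined (34 genes in 3 groups), 9 had such a rat, where about 5.1 would by chance. None was among the non-addicted rats.

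Within MA12, rat 21 was low for *Flt4* (ratio 0.931, level 1.05 against 1.61 in the nearest rat) and for *Vwf* (ratio 0.857, 6.08 against 6.45). Rat 31 was high for *Nostrin* (0.842, 2.98 against 2.51) and low for *Plvap* (0.868, -0.85 against -0.09), where counts were few. Rat 4N was high for *Ocln* (0.844, 4.44 against 4.11).

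Within MA24, rat 16N was high for *Mfsd2a* (0.912, 5.99 against 5.34) and for *Egfl7* (0.854, 5.50 against 5.24), which edgeR called against the non-addicted rats. Rat 15N was low for *Flt4* (0.865, 1.17 against 1.69). Rat 14N was high for *Abcg2* (0.866, 4.93 against 4.63), the gene called in MA24 vs. MA12, and without that rat *Abcg2* still passed.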

How the results depend on the processing

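In MA24 vs. MA12 *Abcg2* stayed the 1 member called except in the fit of all 3 groups and among rats numbered with N, which gave 0 (its adjusted p by edgeR was 0.0682 and 0.184). Against MA12, the count of 2 for the non-addicted rats became 1 with total counts alone or with no filter on counts or variance, 0 with no variance filter, 3 with DESeq2, and 1 to 4 when 1 rat was left out. Against MA24, the count of 4 became 2 with no filter, 0 with no variance filter or with all 3 groups in the fit, 5 with DESeq2, and 0 to 8 when 1 rat was left out. The causes of these shifts were not tested. Of 981 comparisons of a single gene under another setting, 915 kept direction and side of the threshold, 38 lost the call, 10 gained one and 18 turned in sign. None of the genes that turned was called in that comparison. They were *Car4* in MA24 vs. MA12 (0.0119 with DESeq2 and 0.0101 with RLE size factors, 0.32 among rats numbered with N, -0.19 to 0.16 with 1 rat left out), *Egfl7* there (-0.0086 with total counts, -0.0085 to 0.14), *Abcg2* (-0.40 to 0.19) and *Slc2a1* (-0.11 to 0.12) in Non-addicted vs. MA12, and *Podxl* in Non-addicted vs. MA24 (0.0451 with total counts, -0.0893 to 0.0496). Over all alternatives the median log2FC of the members ranged from 0.06 to 0.17, from -0.33 to -0.18 and from -0.43 to -0.28 in the 3 comparisons. No paired analysis was possible because the groups share no rat number. Depth limits *Plvap*, *Flt4* and *Robo4* most. The unstated strand setting and collection hour of the non-addicted rats limit what these differences can be read as.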
